A study of Mus musculus with 24 samples.

Results

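The sites examined here are the P2 (postnatal day 2) peaks of SOX8 and of SOX9 in mouse retina, 2653 peaks in the SOX8 list and 5476 in the SOX9 list, or 8129 of the 349901 peaks of the series. The deposited lists were set against each other and a peak was called shared when it overlapped a peak of the other list by 1 bp or more. This gave 4 classes. Of the SOX9 peaks, 2492 overlapped a SOX8 peak (45.5%, 95% Wilson interval 44.2 to 46.8%) and 2984 did not. Of the SOX8 peaks, 2508 overlapped a SOX9 peak (94.5%, 93.6 to 95.3%) and 145 did not.

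SOX8 and SOX9 belong, with SOX10, to the SOXE group of transcription factors, which bind short AT-rich sequences through an HMG box and bend the DNA. In the developing retina SOX9 is made in progenitor cells and is kept in Müller glia, the radial glia that span the retina and arise from the last progenitors, and SOX8 is also found in these glia. CUT&RUN, in which a nuclease tethered to an antibody cleaves the DNA beside its target, releases chromatin from unfixed nuclei, and the sequenced fragments pile up where the target sits. H3K4me3 is a histone mark of promoters, and H3K27ac is one of active promoters and enhancers.

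All the groups are wild-type whole retina at P2, when the late retinal cell types including Müller glia are still being born, with 600000 nuclei for each reaction and the EpiCypher CUT&RUN kit. The SOX8 group has 4 libraries, 2 from a GeneTex antibody and 2 from a Proteintech antibody, and the SOX9 group has 2 libraries from a Millipore Sigma antibody. H3K4me3, H3K27ac and IgG have 2 libraries each at P2, and the same set was made at P17. Each list names only a target and an age, with no replicate and no score other than 0, and how the libraries of a group, or the SOX8 antibodies, were combined is not given in the sources used here. Whole retina mixes progenitors, neurons and glia, so a peak cannot be assigned to a cell type.

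The 8 deposited lists differ greatly in extent, which bears on every overlap given here. The P2 H3K4me3 list has 9134 peaks over 35.5 Mb, and the P2 H3K27ac list has 287845 peaks over 525 Mb. The P17 lists hold 2855 SOX9, 2400 SOX8, 9629 H3K4me3 and 29909 H3K27ac peaks. How deeply the libraries were sequenced is unknown, and no IgG peak list was analysed here. No spread between libraries can be computed, so no comparison below has a test: shares carry 95% Wilson intervals, which cover counting error only. A gene counts as having a peak when the peak overlaps the gene or lies within 5 kb of it.

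The promoters of the genes for SOX8 and for SOX2 both lay whole within shared peaks, and are shown with promoters from the other classes so that the letters of each class can be seen. Each window is the RefSeq sequence (GRCm38.p6) from 250 bases before to 50 bases after an annotated 5′ end, 5′ to 3′ on the strand of the gene, with every CG in capitals. Sox8 (chr17:25570637-25570936, minus strand, 21 CG) and Sox2 (chr3:34649745-34650044, plus strand, 27 CG) lay in shared peaks. The Notch ligand genes Dll3 (chr7:28301736-28302035, minus strand, 11 CG) and Dll4 (chr2:119325534-119325833, plus strand, 17 CG) lay in SOX9-only peaks, and were chosen after the classes were known. Hjurp (chr1:88277530-88277829, minus strand, 22 CG), a chaperone of the centromeric histone CENP-A, lay in a SOX8-only peak. Whether the Hjurp locus belongs to the regions of the genome that give high signal in any such library was not tested, and no list of such regions was used. Dll3, with 11 CG, is below the median of 13 over all protein-coding windows, and the other 4 are above it.
Sox8: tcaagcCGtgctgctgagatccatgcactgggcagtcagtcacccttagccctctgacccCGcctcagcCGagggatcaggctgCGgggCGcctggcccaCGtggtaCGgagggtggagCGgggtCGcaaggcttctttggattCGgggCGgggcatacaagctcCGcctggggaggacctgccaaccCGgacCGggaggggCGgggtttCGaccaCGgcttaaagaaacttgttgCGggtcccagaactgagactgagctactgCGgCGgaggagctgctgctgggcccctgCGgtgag
Sox2: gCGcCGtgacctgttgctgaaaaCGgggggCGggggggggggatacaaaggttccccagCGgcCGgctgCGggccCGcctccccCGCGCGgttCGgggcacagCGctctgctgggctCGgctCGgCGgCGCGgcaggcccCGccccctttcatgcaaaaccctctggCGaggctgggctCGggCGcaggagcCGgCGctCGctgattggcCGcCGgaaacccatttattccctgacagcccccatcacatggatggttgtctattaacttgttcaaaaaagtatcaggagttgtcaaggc
Dll3: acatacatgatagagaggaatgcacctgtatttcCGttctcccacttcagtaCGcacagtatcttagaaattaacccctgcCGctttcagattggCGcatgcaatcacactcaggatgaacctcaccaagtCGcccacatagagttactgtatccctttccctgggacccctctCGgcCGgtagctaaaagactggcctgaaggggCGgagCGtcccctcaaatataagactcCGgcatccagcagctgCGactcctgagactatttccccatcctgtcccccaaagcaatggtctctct
Dll4: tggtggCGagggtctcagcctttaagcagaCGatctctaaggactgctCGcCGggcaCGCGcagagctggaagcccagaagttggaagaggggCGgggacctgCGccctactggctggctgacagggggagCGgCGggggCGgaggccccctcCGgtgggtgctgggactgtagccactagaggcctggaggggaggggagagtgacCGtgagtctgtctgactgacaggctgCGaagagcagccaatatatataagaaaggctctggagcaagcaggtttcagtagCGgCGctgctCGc
Hjurp: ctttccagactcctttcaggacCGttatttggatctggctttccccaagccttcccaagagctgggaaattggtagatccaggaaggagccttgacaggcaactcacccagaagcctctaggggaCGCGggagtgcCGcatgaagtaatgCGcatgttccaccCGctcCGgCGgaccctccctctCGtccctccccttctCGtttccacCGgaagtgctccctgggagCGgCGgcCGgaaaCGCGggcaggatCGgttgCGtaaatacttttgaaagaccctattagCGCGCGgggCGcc

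None of these 5 windows holds AACAAT or AACAAAG, short forms of the sequence that SOX HMG boxes bind, on either strand. Of 2522 windows in shared peaks, 7.02% held either motif (95% Wilson interval 6.09 to 8.08%), beside 7.61% (6.58 to 8.79%) of 2220 windows in SOX9-only peaks and 8 of 111 (7.21%, 3.70 to 13.6%) in SOX8-only peaks. The share was 13.4% (13.0 to 13.9%) of all 21263 protein-coding windows of the table, and 8.78% (7.997 to 9.64%) of the 4589 windows inside P2 H3K4me3 peaks without a SOX peak. The motifs do not overlap each other, and a match in a window this short is a description of its letters only. The median GC content was 66.0% in shared, 64.0% in SOX9-only and 68.7% in SOX8-only windows, 60.7% in the H3K4me3 windows without a SOX peak and 56.3% in all windows. The median number of CG dinucleotides followed the same order, with 27, 24, 31, 21 and 13.

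MicroRNA genes were also under these peaks. Of 1005 hairpins in the RefSeq table (GRCm38.p6), 46 overlapped shared peaks, 19 SOX9-only peaks and 0 SOX8-only peaks. These classes hold 2492, 2984 and 145 peaks, and whether the counts differ from what their sizes give was not tested. With no window around the gene, 5396 of 21887 protein-coding genes, which are longer than hairpins, met a SOX9 peak. The 46 include Mir3960, for which that table gives the hairpin alone. They do not include Mir124a-2, which the gene table places under a shared peak, so the hairpin counts are not complete. The mature sequences printed here are those of well-known neural microRNAs among them, chosen after their positions were seen, with the seed (bases 2 to 8) in capitals.
miR-9-5p: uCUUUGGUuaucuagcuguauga
miR-183-5p: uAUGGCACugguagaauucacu
miR-96-5p: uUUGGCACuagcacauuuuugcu
let-7i-5p: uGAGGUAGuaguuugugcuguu
miR-132-3p: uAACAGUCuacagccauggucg
miR-212-3p: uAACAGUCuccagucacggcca
The first 3 come from hairpins under shared peaks and the last 3 from hairpins under SOX9-only peaks. miR-9-5p is made from Mir9-2 (chr13:83738814-83738885) and Mir9-3 (chr7:79505264-79505353), which lay under separate shared peaks of 28401 and 6725 bp. Mir183 and Mir96, of a cluster abundant in photoreceptors, shared a SOX9 peak of 11297 bp that also met SOX8. The seed AACAGUC is common to miR-132-3p and miR-212-3p, whose hairpins stand next to each other under a SOX9-only peak of 3097 bp (chr11:75171561-75174657). Mirlet7i lay under a SOX9-only peak of 2870 bp.

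SOX9 peaks were the wider ones, and those shared with SOX8 were wider than those that were not. The median width was 2812 bp for SOX9 peaks with SOX8 (quartiles 2286 and 3524 bp), 2528 bp for SOX9-only peaks (2052 and 3166 bp), 2222 bp for SOX8 peaks with SOX9 (1825 and 2732 bp) and 2152 bp for SOX8-only peaks (1741 and 2539 bp). The ratio of the first median to the second was 1.11. The classes overlapped broadly in width and parted mainly in the upper tail. Peaks of 5 kb or more made up 190 of the SOX9 peaks with SOX8 (7.62%), 79 of the SOX9-only peaks (2.65%), 33 of the SOX8 peaks with SOX9 and 1 of the SOX8-only peaks. At 10 kb or more these counts were 27, 1, 1 and 0.

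**Figure D1:**
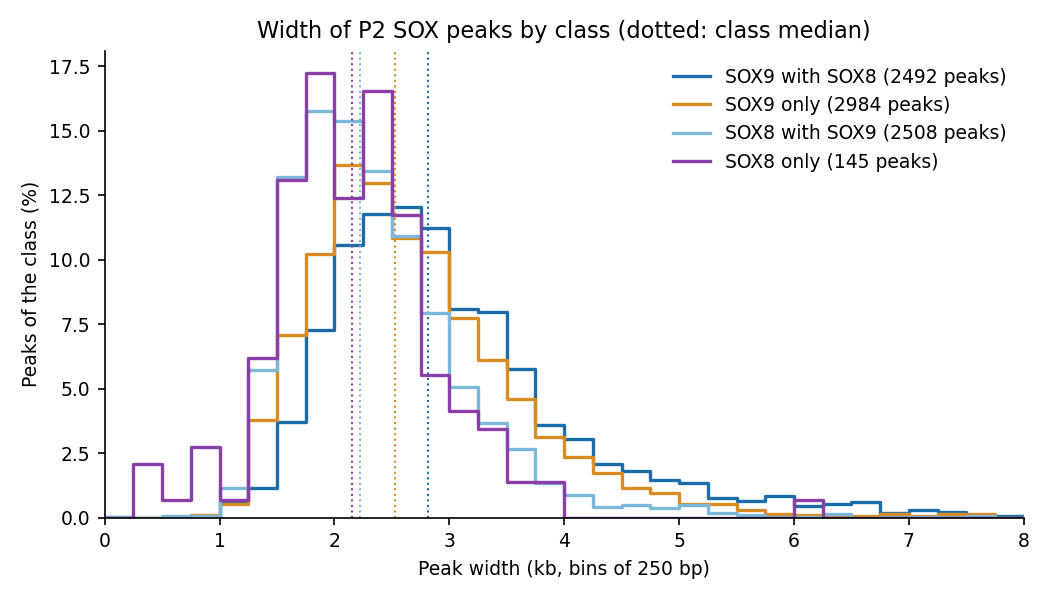
Width of the P2 SOX peaks in each class, as the percentage of the class in bins of 250 bp, with dotted lines at the class medians. The axis ends at 8 kb, short of the widest SOX9 peak of 30864 bp; the SOX9 classes peak to the right of the SOX8 classes, and shared SOX9 peaks have the longest tail.

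In overlapping pairs the SOX8 peak usually lay within the SOX9 peak. There were 2513 pairs. In 1413 of them (56.2%) the SOX8 peak lay wholly inside the SOX9 peak, in 162 (6.45%) the SOX9 peak lay inside the SOX8 peak, and in 938 (37.3%) each ran past the other. SOX9 had the wider peak in 2066 pairs (82.2%), with a median ratio of widths of 1.25. The centres were a median of 228 bp apart and within 500 bp in 2010 pairs (79.98%). The median pair covered 100% of the SOX8 peak and 76.7% of the SOX9 peak.

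Very few sites depend on the 1 bp threshold. In 4 pairs the shared bases were under 50% of the shorter peak. The 5 pairs with the fewest shared bases had 44 bp (at Nfic), 68 bp (between Per1 and Vamp2), 121 bp (chr9:3001408-3001529, no protein-coding gene within 5 kb), 483 bp (Ttyh1) and 520 bp (Nfic). The peaks of the chr9 pair are only 122 and 125 bp wide, and the 520 bp are a whole SOX8 peak. Those overlaps are thus small in bases but nearly complete for the shorter peak. The 5 SOX8-only peaks nearest to a SOX9 peak were 303 bp (Junb and Prdx2), 323 bp (Bscl2, Gng3 and Hnrnpul2), 546 bp (Agap1), 798 bp (chr11:98785360-98788004, no protein-coding gene within 5 kb) and 1376 bp (Hjurp) away. No list of high-signal regions was used, and whether the sites at Hjurp and at chr9:3001408-3001529 fall in one was not tested. Most unshared peaks were far from the other list. The median gap was 138020 bp for SOX9-only peaks, of which 1750 (58.6%) were more than 100 kb from any SOX8 peak, and 74912 bp for SOX8-only peaks, of which 61 (42.1%) were that far from SOX9.

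At Pax6, Six3, Six6 and Rax, a broad SOX9 peak held separate, narrower SOX8 peaks. Pax6 and Six3 are among the 10 widest shared SOX9 peaks. Pax6, which encodes the homeodomain factor needed for eye formation, had a SOX9 peak of 25461 bp (chr2:105665720-105691180) over its 5′ end that held 3 SOX8 peaks of 3669, 3426 and 3605 bp. Six3, a homeobox gene of the eye field and forebrain, had a SOX9 peak of 25607 bp (chr17:85606171-85631777) with SOX8 peaks of 2549 and 8049 bp in it. Its relative Six6 had a SOX9 peak of 13245 bp across the whole gene (chr12:72935717-72948961), with a SOX8 peak of 2451 bp over the 5′ end and of 2800 bp over the 3′ end. Rax, another homeobox gene of the eye field, had a SOX9 peak of 11262 bp with SOX8 peaks of 1990 and 2780 bp. Only 19 SOX9 peaks met more than 1 SOX8 peak, and these 4 genes and the cyclin gene Ccnd1 (12346 bp, with SOX8 peaks of 2283 and 2271 bp) are among them. Others of the 19 lay at Ccdc85c, Rara, Ddr1, Ptprs, Marcks and Erf, so the pattern was not particular to eye-field genes.

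The widest shared peak of all was at Pmepa1, an inhibitor of TGF-β signalling (chr2:173252113-173282976, 30864 bp). The next, of 28401 bp (chr13:83714801-83743201), has no protein-coding gene within 5 kb and covers Mir9-2. Another, of 16333 bp (chr3:17783784-17800116), is also without a protein-coding gene and covers Mir124a-2 and its host transcript, as the gene table names them. The remaining peaks of the 10 widest lay at Bcas3 and Tbx2 (19119 bp), Ccdc85c (17442 bp), Meis1 (15172 bp), Msi1 (14467 bp) and at a site on chromosome 15 with no protein-coding gene within 5 kb (13892 bp). Meis1 is a homeobox gene of eye progenitors and Msi1 encodes an RNA-binding protein of neural stem cells. At Msi1 the SOX8 peak, of 10029 bp, was the widest of the SOX8 list.

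The 10 widest SOX9-only peaks lay at Mab21l1 within Nbea (10016 bp), Casz1 (9944 bp), Nr2f1 (9910 bp), Lrp8 (9870 bp), Mab21l2 within Lrba (9485 bp), Rorb (9481 bp), Ahdc1 (9467 bp), Cdc6 and Rara (8879 bp), Nr2e3 (8546 bp) and Otx2 (8263 bp). Otx2 encodes the homeodomain factor that starts photoreceptor and bipolar fate, Rorb and Nr2e3 encode nuclear receptors of rod development, and Casz1 encodes a zinc finger factor that biases late progenitors. At 6 of these 10 peaks, the nearest SOX8 peak was over 100 kb away, close to the 58.6% of all SOX9-only peaks. The gap was 215932 bp at Otx2, 193008 bp at Nr2e3 and 2677890 bp at Nr2f1. Casz1 was the nearest, 15851 bp from SOX8, and has 9 SOX9 and 3 SOX8 peaks in all. More SOX9 peaks than that were found at 1 gene, Gse1, which encodes a subunit of a histone deacetylase complex. It has 19 SOX9 and 8 SOX8 peaks, and 11 of the SOX9 peaks were SOX9-only. Ccdc85c had 5 of each, and Nfic had 5 and 4. Gse1 is 352.9 kb and Casz1 150.5 kb long, beside a median of 23.8 kb for genes with P2 H3K4me3. A longer gene has more sequence in which a peak can count.

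Width and the promoter mark each went with sharing. In 5 width groups of equal size, the share of SOX9 peaks with SOX8 was 33.3% in the narrowest group (30.6 to 36.1%), then 40.9%, 48.9% and 47.9%, and 56.5% in the widest (53.6 to 59.4%). On P2 H3K4me3, the share was 51.8% (2266 of 4372 peaks, 50.3 to 53.3%), against 20.5% off it (226 of 1104, 18.2 to 23.0%). The rise with width was seen on H3K4me3, from 36.7% (33.6 to 39.9%) to 68.3% (65.0 to 71.4%). Off H3K4me3 the share was 17.3% (12.6 to 23.3%) in the narrowest and 24.1% (19.5 to 29.3%) in the widest group, intervals that overlap. A wider peak has more bases in which to meet another, and how much of the rise this accounts for was not tested.

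**Figure D2:**
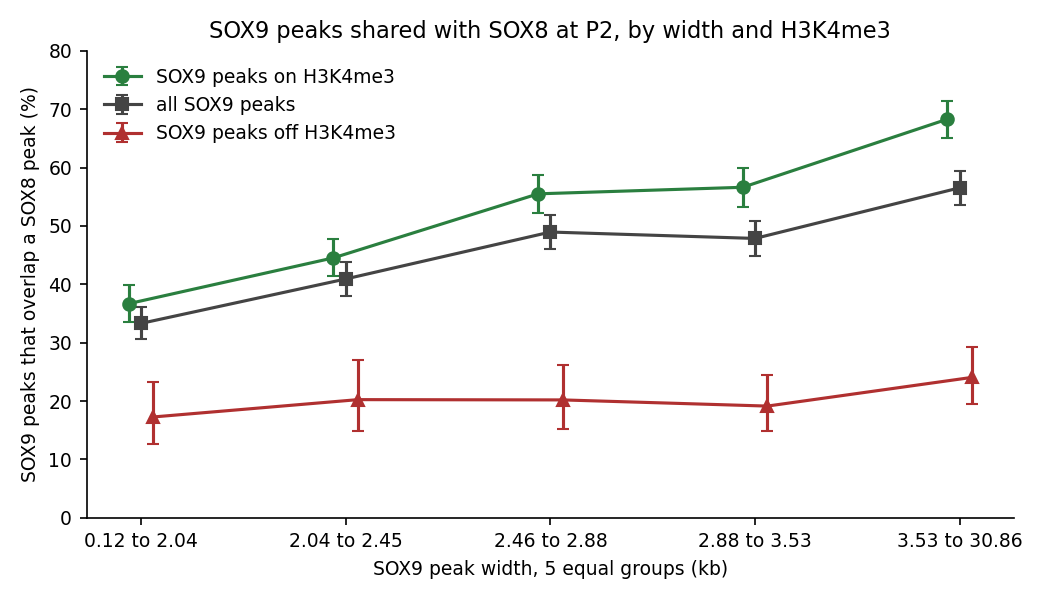
Share of P2 SOX9 peaks that overlap a P2 SOX8 peak in 5 width groups of equal size, for all SOX9 peaks and for those on and off P2 H3K4me3, with 95% Wilson intervals. The share rises from 36.7% to 68.3% on H3K4me3 and stays between 17.3% and 24.1% off it.

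Seen from the classes, shared sites were more often promoter-marked. H3K4me3 overlapped 90.9% of SOX9 peaks with SOX8 (89.7 to 92.0%), 70.6% of SOX9-only peaks (68.9 to 72.2%) and 111 of 145 SOX8-only peaks (76.6%, 69.0 to 82.7%). H3K27ac without H3K4me3 was found at 226 shared SOX9 peaks (9.07%), 861 SOX9-only peaks (28.9%, 27.3 to 30.5%) and 33 SOX8-only peaks (22.8%, 16.7 to 30.2%). Sites with neither mark were rare, with 0 of 2492 shared, 17 of 2984 SOX9-only and 1 of 145 SOX8-only peaks. The P2 H3K27ac list is so extensive that an overlap with it separates the classes little: it met 99.8%, 99.0% and 97.9% of them.

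Most peaks of every class were at gene ends, and nearly all of these were 5′ ends. Peak centres fell at most 1 kb from a protein-coding gene's end in 71.0% of SOX9 peaks with SOX8 (69.2 to 72.8%), 59.3% of SOX9-only peaks (57.6 to 61.1%) and 102 of 145 SOX8-only peaks (70.3%, 62.5 to 77.2%). Where the strand was known, that end was the 5′ end in 97.8%, 97.0% and 94.3% of them. The median distance from centre to gene end was 428 bp for SOX9 peaks with SOX8, 609 bp for SOX9-only and 455 bp for SOX8-only peaks. The classes parted at long range, where the upper quartile was 1356, 6885 and 1802 bp, and 3.61%, 8.28% and 7.59% of centres were over 50 kb from any gene end.

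**Figure D3:**
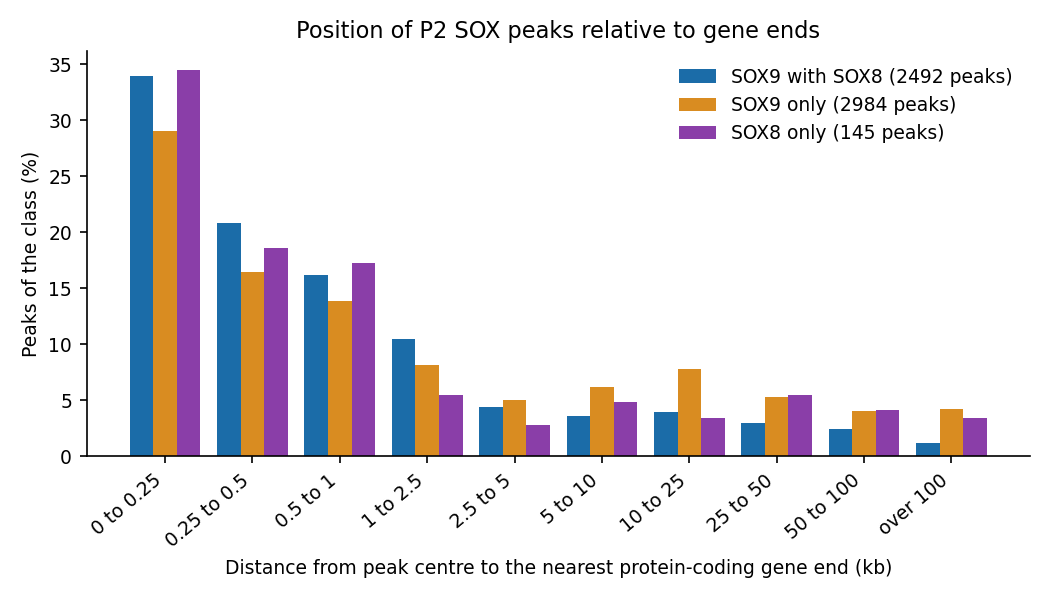
Distance from the centre of each P2 SOX peak to the closest protein-coding gene end, as the percentage of each class in 10 distance ranges of unequal width. All classes are highest within 250 bp, and SOX9-only peaks take the largest share of the ranges from 5 to 25 kb and over 100 kb.

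The difference between SOX9 classes in position was smaller within the promoter mark. The share within 1 kb of a gene end was 11.7 percentage points higher for shared than for SOX9-only peaks (9.16 to 14.2). Among peaks on H3K4me3 it was 76.4% for shared and 77.8% for SOX9-only peaks, a difference of -1.34 points (-3.83 to 1.15), and off H3K4me3 it was 16.8% and 15.1%. By distance, SOX8 met 49.99% of SOX9 peaks centred within 1 kb of a gene end, 48.6% of those at 1 to 5 kb, 31.4% at 5 to 50 kb and 26.7% (90 of 337, 22.3 to 31.7%) beyond 50 kb. Of the 145 SOX8-only peaks, 102, 12, 20 and 11 lay at these distances.

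At 5′ ends, the wider SOX9 peaks reached further on both sides. The 1211 shared pairs measured here are those in which each peak met no further peak of the other list and both covered the same single 5′ end. In them the SOX9 peak ran a median of 1252 bp upstream and 1370 bp downstream, and the SOX8 peak 1026 and 1114 bp. At the 1347 SOX9-only peaks over a single 5′ end, the medians were 1039 bp upstream and 1299 bp downstream. In each of these sets the median reach was longer downstream than upstream. Of the shared SOX9 peaks that covered any 5′ end, 273 of 1778 covered 5′ ends on both strands (15.4%, 13.8 to 17.1%). Of such SOX9-only peaks, 200 of 1749 did (11.4%, 10.03 to 13.0%). The shared peaks are wider and so have more room to cover further 5′ ends, and how much this accounts for was not tested.

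Between autosomes, sharing ranged from 38.3% of SOX9 peaks on chromosome 13 to 52.6% on chromosome 19. On the X chromosome 14 of 48 SOX9 peaks met SOX8 (29.2%, 18.2 to 43.2%), an interval that overlaps those of most autosomes.

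Shared P2 sites were the ones most often occupied again at P17, after the birth of retinal cells has ended. A P17 SOX9 peak lay on 1253 of 2492 shared SOX9 peaks (50.3%, 48.3 to 52.2%), 452 of 2984 SOX9-only peaks (15.1%, 13.9 to 16.5%) and 20 of 145 SOX8-only peaks (13.8%, 9.11 to 20.3%). For P17 SOX8 the shares were 48.0% (46.0 to 49.96%), 10.96% (9.89 to 12.1%) and 11.7% (7.45 to 18.0%). Both P17 factors were on 36.9% of shared and 5.73% of SOX9-only peaks. The P17 lists were not used to form the classes.

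The gap between classes at P17 was present on and off the promoter mark and at each width. On P2 H3K4me3, P17 SOX9 met 52.5% of shared (50.5 to 54.6%) and 15.5% of SOX9-only peaks (14.0 to 17.1%). Off it, the shares were 27.9% (22.4 to 34.1%) and 14.2% (12.1 to 16.7%). In the narrowest of the 5 width groups they were 30.4% (25.9 to 35.3%) and 9.17% (7.28 to 11.5%), and in the widest 66.1% (62.3 to 69.7%) and 23.5% (19.9 to 27.5%). The marks differed less between classes: of peaks on P2 H3K4me3, P17 H3K4me3 met 96.6% of shared and 91.1% of SOX9-only peaks, and P17 H3K27ac met 95.5% and 87.6%.

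**Figure D4:**
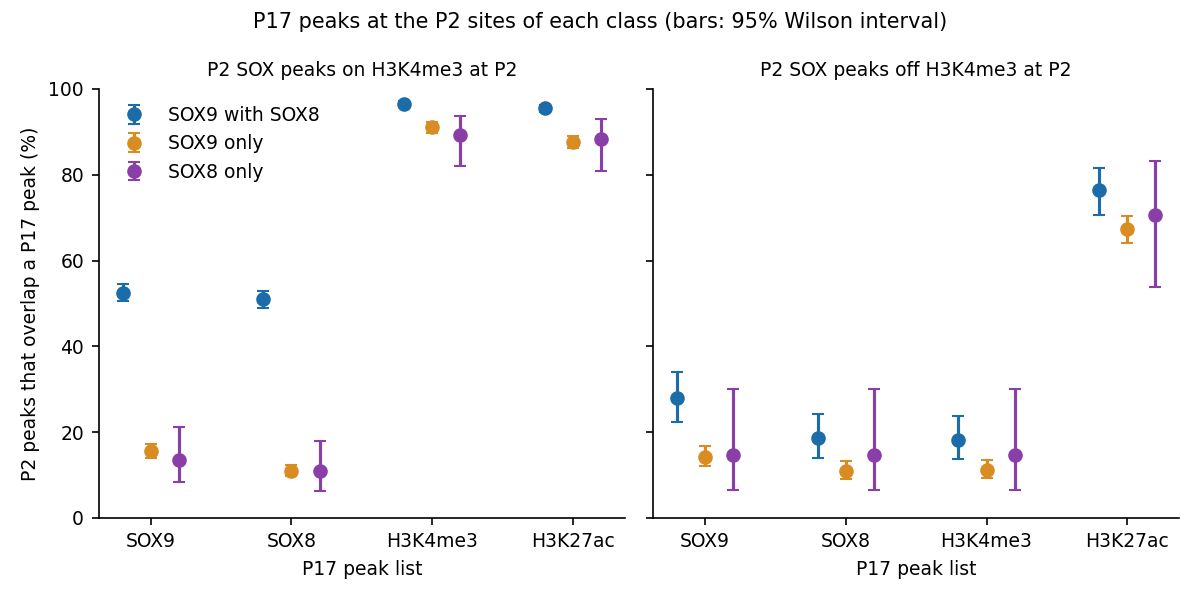
Share of P2 SOX9 peaks with SOX8, SOX9-only and SOX8-only peaks that overlap each P17 list, separately for P2 sites on and off P2 H3K4me3, with 95% Wilson intervals. P17 SOX9 and SOX8 peaks meet over 50% of shared sites on H3K4me3 and under 16% of the others there, while the P17 marks differ less.

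At the level of genes, a P2 SOX9 peak was found at 6073 of 21887 protein-coding genes (27.7%) and a SOX8 peak at 3302 (15.1%). Peaks of both were at 3164 genes (14.5%), SOX9 without SOX8 at 2909 (13.3%) and SOX8 without SOX9 at 138 (0.631%). Both factors thus marked 52.1% of the genes with SOX9. Where a gene had both factors, it was nearly always at a common site: 3136 had a shared peak, 434 of the 3164 also had a SOX9-only peak, and 28 had both factors only at separate sites. H3K4me3 was at 97.8% of genes with both factors, 91.3% with SOX9 alone, 90.6% with SOX8 alone and 31.3% with neither. Genes with both factors had 2 or more SOX9 peaks in 17.8% of cases, against 7.46% for SOX9 alone, with median gene lengths of 23.2 and 25.7 kb.

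Because SOX peaks follow H3K4me3, each gene list is read beside the 10788 protein-coding genes with a P2 H3K4me3 peak, of which 28.7% had both factors, 24.6% SOX9 without SOX8, 1.16% SOX8 without SOX9 and 45.5% neither. The lists share some genes, such as Sox2, Hes1 and Notch1, and were chosen with earlier results known. A bulk peak list also cannot tell a factor bound in few cells from a weak site in many.

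All 28 retinal progenitor genes had a SOX9 peak, 21 of them with SOX8 (75%) and 7 without. Progenitor genes with both factors included the proneural gene Neurog2 (SOX9 peak 4468 bp, SOX8 peak 3105 bp), the secreted WNT modulator gene Sfrp2 (3831 and 1915 bp) and the replication clamp gene Pcna (3405 and 1720 bp). Lhx2, a LIM homeobox gene of progenitors and Müller glia, had a SOX9 peak of 9352 bp and a SOX8 peak of 3793 bp inside the gene. Both lay on H3K4me3 and covered an annotated 5′ end. Those with SOX9 alone included the homeobox gene Meis2 (peaks of 3365 and 2834 bp), Foxn4, Fgf15, Dll3 and the proliferation genes Mki67 and Top2a. Fgf15 is a marker of dividing retinal progenitors, and Foxn4 is needed for amacrine and horizontal fates.

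Of the 32 Müller glia genes, 17 had both factors (53.1%), 3 had SOX9 alone and 12 had neither, while 28 had H3K4me3. Glul, Rlbp1 and Kcnj10 are among those with both. Glul, the glutamine synthetase gene, had a SOX9 peak of 4351 bp (chr1:153898265-153902615) and a SOX8 peak of 2293 bp over its 5′ end. Rlbp1, which encodes the retinaldehyde-binding protein of the visual cycle, had peaks of 3830 bp (chr7:79390929-79394758) and 2167 bp over its 5′ end. At Kcnj10, the gene of an inwardly rectifying potassium channel, the peaks of 2295 bp (chr1:172348673-172350967) and 1913 bp lay inside the gene and off H3K4me3. The intermediate filament gene Vim had the wider peak from SOX8, with 1957 bp for SOX9 and 2774 bp for SOX8, as did 445 of all pairs (17.7%).

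The 3 Müller glia genes with SOX9 alone were Sox9 itself, Nfia and the glutamate transporter gene Slc1a3, whose SOX9 peak of 2291 bp (chr15:8630662-8632952) lay outside the gene and off H3K4me3. The 12 without a P2 SOX peak were Abca8a, Apoe, Aqp4, Cd9, Clu, Crym, Dbi, Gfap, Gpr37, Ptn, S100a16 and Spon1. They include the water channel gene Aqp4 and the glial filament gene Gfap, and 8 of the 12 had a P2 H3K4me3 peak.

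In the SOX family, the loci of both factors carried SOX9. Sox8 had a shared site over its 5′ end, with a SOX9 peak of 6595 bp (chr17:25565999-25572593) and a SOX8 peak of 3145 bp (chr17:25568710-25571854), and a SOX9-only peak of 3088 bp outside the gene. Sox9 had a SOX9-only peak of 5467 bp (chr11:112780741-112786207) and no SOX8 peak within 5 kb. Of the 20 family members, 4 had both factors (Sox2, Sox8, Sox11 and Sox12), 3 had SOX9 alone (Sox4, Sox6 and Sox9) and 13 had neither, Sox10 among them. At Sox2, a gene of progenitors and Müller glia, the SOX9 peak was 6176 bp and the SOX8 peak 4200 bp wide, both over the 5′ end. Sox11 and Sox4, SOXC genes of newborn neurons, fell in different classes, with a shared site of 5928 bp at Sox11 and SOX9-only peaks of 2850 and 1972 bp at Sox4.

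All 4 nuclear factor I genes, which promote late progenitor competence and gliogenesis, had SOX9 peaks, and Nfix held the factors apart. Their median length was 156.6 kb, beside 23.8 kb for genes with P2 H3K4me3, so a peak has more sequence in which to count. Nfix had 4 SOX9-only peaks inside the gene, of 1364, 3113, 2475 and 2169 bp, and the last covered the annotated 5′ end of a promoter window. A SOX8-only peak of 2844 bp (chr8:84798521-84801364) lay over the outer 5′ end of the gene, 10987 bp from the nearest SOX9 peak. This SOX8 peak covered no annotated 5′ end of a promoter window. Nfib had a shared site over its end with a SOX9 peak of 5021 bp and a SOX8 peak of 3371 bp. Nfia had 2 SOX9-only peaks, of 4217 and 2997 bp. Nfic had 5 SOX9 and 4 SOX8 peaks, all but 1 of the SOX9 peaks shared.

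In the Notch pathway, by which progenitors hold their neighbours back from differentiation, 14 of 27 genes had both factors (51.9%), 7 had SOX9 alone (25.9%, beside 24.6% of genes with H3K4me3) and 6 had neither, and all 27 had H3K4me3. Of the ligands, Dll1 had both (6823 and 3767 bp), while Dll3, Dll4, Jag1 and Jag2 had SOX9-only peaks of 1876, 6448, 4435 and 4171 bp over their 5′ ends. Among receptors, Notch1 had a shared site over its 5′ end (7329 and 4927 bp) and a SOX9-only peak of 4813 bp inside the gene. Notch4 had 2 peaks of each factor, none of them over its 5′ end. Those inside Notch4 lay near its 3′ end, and the others lay past that end, over the 5′ end of another gene. Notch2 and Notch3 had no SOX peak. Rbpj, the DNA-binding partner of the cleaved receptor, had a shared site inside the gene and over an annotated 5′ end (3430 and 3335 bp).

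Among the target genes of the pathway, which encode repressors of neuronal differentiation, Hes1 had a SOX9 peak of 6319 bp (chr16:30061830-30068148) and a SOX8 peak of 3880 bp. Hes5 had peaks of 7697 bp (chr4:154957805-154965501) and 7140 bp, each covering the whole gene. Hey1 had 2398 and 2340 bp, and the feedback regulator gene Nrarp had 2 peaks of each factor. Hey2 had a SOX9-only peak of 3308 bp, and Heyl had neither. The remaining members with both were Hes6, Dtx1, Dtx4, Lfng, Maml3 and Numbl, those with SOX9 alone were Maml1 and Numb, and those with neither were Maml2, Mfng and Rfng.

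In the list for amacrine and horizontal cells, inhibitory interneurons of the retina, 7 of 14 genes had SOX9 and 0 had SOX8, and 10 had H3K4me3. The 7 were Gad1, Gad2, Lhx1, Onecut2, Prox1, Slc6a9 and Tfap2a. The GABA synthesis genes Gad1 and Gad2 had peaks of 4626 and 3926 bp inside the genes. The Gad2 peak covered an annotated 5′ end, and the Gad1 peak did not. The Lhx1 peak lay outside that gene, over the 5′ end of another. Of 15 ganglion cell genes, Nefm alone had a SOX9 peak, and 5 had H3K4me3. Of 29 rod genes, Crx, Reep6 and Tulp1 had both factors, Nr2e3, Otx2, Prom1 and Rom1 had SOX9 alone, Gnat1 had SOX8 alone and 21 had neither, and 15 had H3K4me3. SOX8 was thus at 4 of 29 rod genes (13.8%), beside 15.1% of all protein-coding genes. Markers of non-neural cells were largely without peaks. Both factors were at 1 of 12 microglia genes (Aif1) and SOX9 alone at 2 of 12 endothelial genes (Egfl7 and Kdr). In each of these 2 lists, 1 gene had H3K4me3. The peaks at Aif1 and Egfl7 lay outside these genes, and those at Aif1 were over the 5′ end of another gene.

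Of 44 chromatin regulator genes, all with H3K4me3, 30 had both factors (68.2%), 9 had SOX9 alone and 5 had neither. Of 81 genes of cytosolic ribosomal proteins, 79 of them with H3K4me3, 16 had both factors (19.8%), 30 had SOX9 alone (37.0%) and 35 had neither. Median gene lengths were 63.5 kb for the chromatin regulators and 3.17 kb for the ribosomal protein genes, so a peak has more sequence in which to count for the former. Kdm6b, a demethylase of H3K27me3, had 3 shared sites, of which that at chr11:69394279-69397354 lay outside the gene. Kdm2b, a CpG-binding member of a Polycomb complex, had a SOX9-only peak of 4252 bp over its 5′ end. It also had a SOX8-only peak of 1825 bp inside the gene, over another annotated 5′ end. Both Kdm2b peaks lay on H3K4me3.

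**Figure D5:**
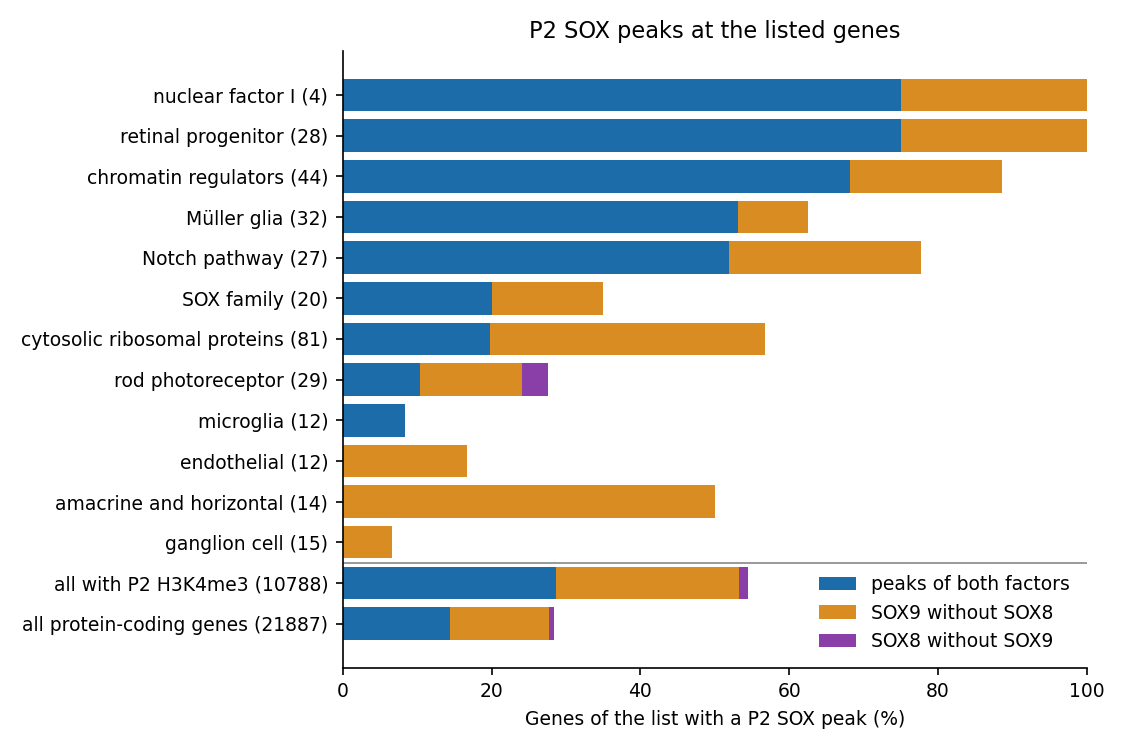
Share of the genes of each list with P2 peaks of both factors, SOX9 without SOX8 or SOX8 without SOX9, with the number of genes in brackets, and below the line the same for all protein-coding genes and for those with P2 H3K4me3. All 28 progenitor genes have SOX9, 75% with SOX8 as well, and the amacrine and horizontal list has SOX9 at 7 of 14 genes and no SOX8.

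The 145 SOX8-only peaks resembled SOX8 peaks at large in width and were spread over all the chromosomes with peaks. The widest, of 6029 bp (chr1:88282395-88288423), and another of 3698 bp (chr1:88275184-88278881) were both at Hjurp. Whether these and the site at Gm20783 lie in high-signal regions was not tested. The others of the 10 widest lay at Gm20783 and LOC108167694 (3800 bp), Sorcs2 (3756 bp), Wnt3 (3524 bp), Macrod1 (3380 bp), Foxd2 (3372 bp), Bhlhe40 (3361 bp), Akt1 and Zbtb42 (3299 bp), and Abhd15, Git1 and Trp53i13 (3277 bp). Wnt3 encodes a secreted WNT ligand, Foxd2 a forkhead factor and Bhlhe40 a repressor of the circadian clock. Gnat1, which encodes the rod transducin α subunit, had a SOX8-only peak of 2447 bp inside the gene (chr9:107675346-107677792), off H3K4me3 and with P17 peaks of both factors on it. Of all 145, 12 had no protein-coding gene within 5 kb, 31 met a P17 SOX peak (21.4%, 15.5 to 28.7%), and 6 met both P17 factors.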

How the data were processed

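The deposited files are 8 lists of peak positions, 1 for each target and age, and hold no counts. Reads were aligned with Bowtie2 to GRCm38 and peaks were called with SEACR, per the submitters' processing notes. Versions, the calling threshold, the use of IgG, any filter of high-signal regions and the combining of libraries are not given in the sources used here. In the files the authors deposited, the score was 0 for every peak, so there is no other unit than position, and the depth of the libraries is unknown.

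Positions were read as intervals, counted from 1, and compared by 1 bp overlap with Python 3.11.15, pandas 2.3.3 and NumPy 2.4.6. The interval code was tested on simulated data. Genes were the 21887 protein-coding genes of RefSeq GRCm38.p6, with a window of 5 kb. The table gives gene ends without strand. Strand and sequence came from the RefSeq promoter table, which covers 17492 of these genes and holds none on chromosome 18, where microRNA hairpins were left out too. Exons and introns were not annotated. The planned protein sequences are not printed.

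Named genes are the members of the SOX, nuclear factor I, Notch, Müller glia and progenitor lists with a peak. They are also the genes at the 10 widest peaks of each class and the 5 genes with the most SOX9 peaks. The 5 pairs with the fewest shared bases and the 5 SOX8-only peaks nearest to a SOX9 peak are named too. Genes named from other lists were chosen after their values were seen. Some genes that the rule names are not reported here. The members and lists were chosen with earlier results of these data known. No test was made, since no list holds values per replicate. Intervals are 95% Wilson intervals, by Newcombe's method for differences, and cover counting error only. Alternatives were other overlap rules, the wider peaks, 500 bp trimmed peaks, autosomes and other gene windows.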

Additional observations from a re-analysis of the deposited data

How the results depend on the processing

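No paired analysis was possible because no list holds values per replicate, and no replicate was left out for the same reason. Of 44 alternative values, 24 stayed within the interval of the main one, 19 moved outside it and 1 changed sign. The interval of that 1 value spans both signs. Requiring 50% of the shorter peak to be covered, gaps of up to 1 kb counted as shared, autosomes alone and other gene ends moved none of their values.

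Choices of peaks by width gave these values. With the wider 50% of each list, SOX8 met 35.5% of SOX9 peaks, SOX9 met 74.1% of SOX8 peaks, 41.9% of genes with SOX9 had both factors, and the class difference in H3K4me3 was 23.3 points. With only the widest SOX9 peaks, in the number of the SOX8 list, the peak shares were 51.3% and 52.1%, the ratio of widths 1.04, the difference at gene ends 19.6 points and that in H3K4me3 28.9 points. Peaks trimmed to 500 bp gave 36.7% and 75.7%. No window around the gene gave 50.8% of genes with SOX9, and a window of 50 kb gave 60.8%.

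The remaining settings were chosen after seeing the data. On H3K4me3 alone, SOX8 met 51.8% of SOX9 peaks, the ratio of widths was 1.15 and the difference at gene ends was -1.34 points. The sign of that difference changed from the main value, but its interval, -3.83 to 1.15, spans both signs. Off H3K4me3 the share, the ratio and the difference were 20.5%, 1.04 and 1.67 points. Averaged over 5 width groups, the difference at gene ends was 15.4 points. The unknown depth and threshold of the lists limit every share.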
